A study of Homo sapiens with 8 samples.

Results

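The keratin genes are described here by the peaks of 2 heterochromatin proteins that lie over them in a breast epithelial cell line. Members were the protein-coding genes whose symbol is KRT followed by digits and at most 1 letter. There were 55 of them among 19970 protein-coding genes on chromosomes 1 to 22 and X, 29 of type I and 26 of type II. The type I genes except KRT18 lie on chromosome 17 and the type II genes lie with KRT18 on chromosome 12. The rule used symbols and no measured value, but it was set with earlier results of these data known.

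Keratins are the intermediate filament proteins of epithelial cells. A filament is built from pairs of 1 acidic type I and 1 basic type II chain, and the pairs mark the kind of epithelium: KRT5 with KRT14 in basal cells, KRT8 with KRT18 in simple epithelia, KRT1 with KRT10 in differentiating epidermis, and a large set in hair and the sheath around it. HP1a (HP1α, the product of CBX5) and HP1b (HP1β, the product of CBX1) are related proteins that bind the methylated histone H3 lysine 9 of heterochromatin, a form of chromatin in which most genes are silent.

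MCF10A is an established, immortalised, non-tumorigenic human mammary epithelial line, and all 8 libraries came from it. HP1a was immunoprecipitated from untreated wild-type cells and from cells with HP1b (HP1B in the labels) knocked down. HP1b was immunoprecipitated from untreated wild-type cells and from cells with HP1a (HP1A) knocked down. Each of these 4 groups had 2 libraries, named replicates 1 and 2. How the knockdowns were made, and whether replicates were separate cultures, is not given in the sources used here, so p values measure only the spread between these libraries, which may be technical. Peak lists do not measure RNA or protein, so neither the depletion of the targeted protein nor the labelled cell type could be checked in them.

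The lists held between 19092 and 240090 peaks on these chromosomes. They covered 69.8 and 60.4 Mb for HP1a in wild type, 9.89 and 9.68 Mb for HP1a in the HP1b knockdown, 158.1 and 157.1 Mb for HP1b in wild type, and 118.4 and 164.9 Mb for HP1b in the HP1a knockdown. Read depth is unknown, because the lists hold no counts. A gene without a peak is one where none was listed, which does not show that the protein was absent. In what follows, the covered share of a gene is the percentage of its length, with 1 kb added on each side, that lies under peaks. Paired values are replicates 1 and 2 in that order.

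The promoter sequences of keratins whose starts met a peak are shown first, with KRT5 as a basal keratin whose start met none. They are the 250 bases before the annotated gene start, from RefSeq on GRCh38.p14, written 5′ to 3′ on the gene's strand, and all 5 genes lie on the minus strand. In the first pair, capitals mark bases that lay under a peak in at least 2 libraries. KRT20, a keratin of intestinal epithelium, is shown from chr17:40885243-40885492, and KRT38, a hair keratin, from chr17:41440984-41441233.
KRT20: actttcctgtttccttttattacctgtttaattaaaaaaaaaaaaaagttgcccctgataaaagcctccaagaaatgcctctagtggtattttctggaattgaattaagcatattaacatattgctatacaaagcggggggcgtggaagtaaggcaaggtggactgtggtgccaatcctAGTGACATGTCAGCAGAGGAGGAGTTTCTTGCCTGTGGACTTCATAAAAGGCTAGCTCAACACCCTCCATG
KRT38: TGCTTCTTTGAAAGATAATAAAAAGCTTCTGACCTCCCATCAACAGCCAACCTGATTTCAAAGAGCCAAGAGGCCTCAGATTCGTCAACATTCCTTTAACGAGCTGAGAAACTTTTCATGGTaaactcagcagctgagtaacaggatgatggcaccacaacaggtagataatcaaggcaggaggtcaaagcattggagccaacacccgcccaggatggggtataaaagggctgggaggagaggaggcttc
In the other three, capitals mark TATAAA on either strand, a form of the TATA box at which transcription of many tissue-restricted genes is started. KRT33A and KRT33B are neighbouring hair keratins, shown from chr17:41350829-41351078 and chr17:41369814-41370063, and KRT5 is shown from chr12:52520395-52520644.
KRT33A: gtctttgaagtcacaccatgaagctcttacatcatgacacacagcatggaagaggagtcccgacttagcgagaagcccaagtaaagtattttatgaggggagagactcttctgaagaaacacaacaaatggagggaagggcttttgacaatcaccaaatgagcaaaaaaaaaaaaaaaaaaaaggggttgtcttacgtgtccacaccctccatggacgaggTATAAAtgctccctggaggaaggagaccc
KRT33B: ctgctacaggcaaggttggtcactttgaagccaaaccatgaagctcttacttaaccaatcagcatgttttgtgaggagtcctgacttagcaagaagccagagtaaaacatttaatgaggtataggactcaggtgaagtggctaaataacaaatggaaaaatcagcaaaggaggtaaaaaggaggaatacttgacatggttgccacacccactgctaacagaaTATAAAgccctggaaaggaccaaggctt
KRT5: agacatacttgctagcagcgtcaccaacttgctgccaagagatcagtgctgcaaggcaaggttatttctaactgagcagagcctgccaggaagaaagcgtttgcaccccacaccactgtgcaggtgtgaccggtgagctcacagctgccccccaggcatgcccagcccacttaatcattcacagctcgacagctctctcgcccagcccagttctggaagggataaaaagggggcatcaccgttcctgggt

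Of the promoters shown, that of KRT20 was met by peaks in both libraries of 1 group. The windows counted here run from 250 bases before the start to 50 after it. In the HP1a knockdown the HP1b peaks covered 121 and 173 of these 300 bases of KRT20, and the other 6 libraries had no peak there. The capitals in KRT20 are the last 71 bases before its start, which both peaks shared. The KRT38 window was covered over 300 bases by HP1a in wild-type replicate 1 and over 122 bases by HP1b in wild-type replicate 1, and not in the second replicate of either. The windows of KRT33A and KRT33B lay whole under peaks of HP1b in wild-type replicate 1 and under none elsewhere. Agreement between replicates at keratin promoters was thus seen at KRT20 alone among the 34 keratins with a promoter entry.

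Keratin promoters differed in base composition from promoters in general. TATAAA was found in 20 of the 34 (58.8%), against 9.64% of 15811 promoters of the same length. GGGCGG, the core of the site bound by SP1, was in 6 (17.6%) against 58.5%, and TGANTCA, the form bound by AP-1, was in 0 against 5.76%, each searched on both strands. No match says only that these letters were not in this window. The median number of CG steps was 2 in keratin promoters and 22 in all, and the median GC content was 45.7 and 62.7%. A peak of at least 1 library met 13 keratin promoters (38.2%), against 11.6% of all. Most of these came from single libraries: HP1b in wild type met 7 in replicate 1 and 2 in replicate 2. No test was made of these shares.

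Peaks covered a small share of the keratin genes in each library. Of the 55 keratins, 26 and 24 had a peak of HP1a in wild type, 1 and 7 in the HP1b knockdown, 36 and 31 had a peak of HP1b in wild type, and 19 and 28 had one with HP1a knocked down. A peak in both libraries of a group was found at 12, 0, 23 and 13 keratins in the same order of groups. These are 21.8, 0, 41.8 and 23.6% of keratins, where 39.8, 9.59, 55.6 and 39.3% of all protein-coding genes had one. Among genes within the length range of keratins the shares were 22.98, 3.36, 43.7 and 24.1%. Keratins thus lay near the shares of the length range, except for HP1a in the HP1b knockdown. Keratin genes are short: the median length with flanks was 8433 bases, against 26190 for all genes, and longer genes have more room for a peak. Over bases, peaks covered 2.88 and 1.99% of the keratin windows for HP1a in wild type (all genes 2.25 and 1.83%). They covered 0.105 and 0.433% in the HP1b knockdown (all genes 0.310 and 0.284%). HP1b peaks covered 5.68 and 5.33% in wild type (all genes 4.63 and 4.84%) and 1.56 and 3.27% in the HP1a knockdown (all genes 3.11 and 4.71%). In wild type, keratins were covered above the level of all genes in each of the 4 libraries, and with HP1a knocked down they were below it in both.

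No keratin had a peak in all 8 libraries. A peak in at least 6 was found at 4 keratins (7.27%), against 32.8% of all genes and 15.4% of genes within the length range of keratins. One in at least 7 was found at 1 keratin (1.82%), against 19.4 and 6.72%. KRT72, of the inner root sheath of the hair, was that one, with no peak in replicate 1 of HP1a in the HP1b knockdown. KRT5, KRT10, KRT15, KRT17, KRT18, KRT37 and KRT81 had none in any library. These 7 are 12.7% of keratins, where 15.8% of all genes had no peak. Among them are the basal keratins KRT5 and KRT15, and KRT18, the partner of KRT8.

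**Figure D1:**
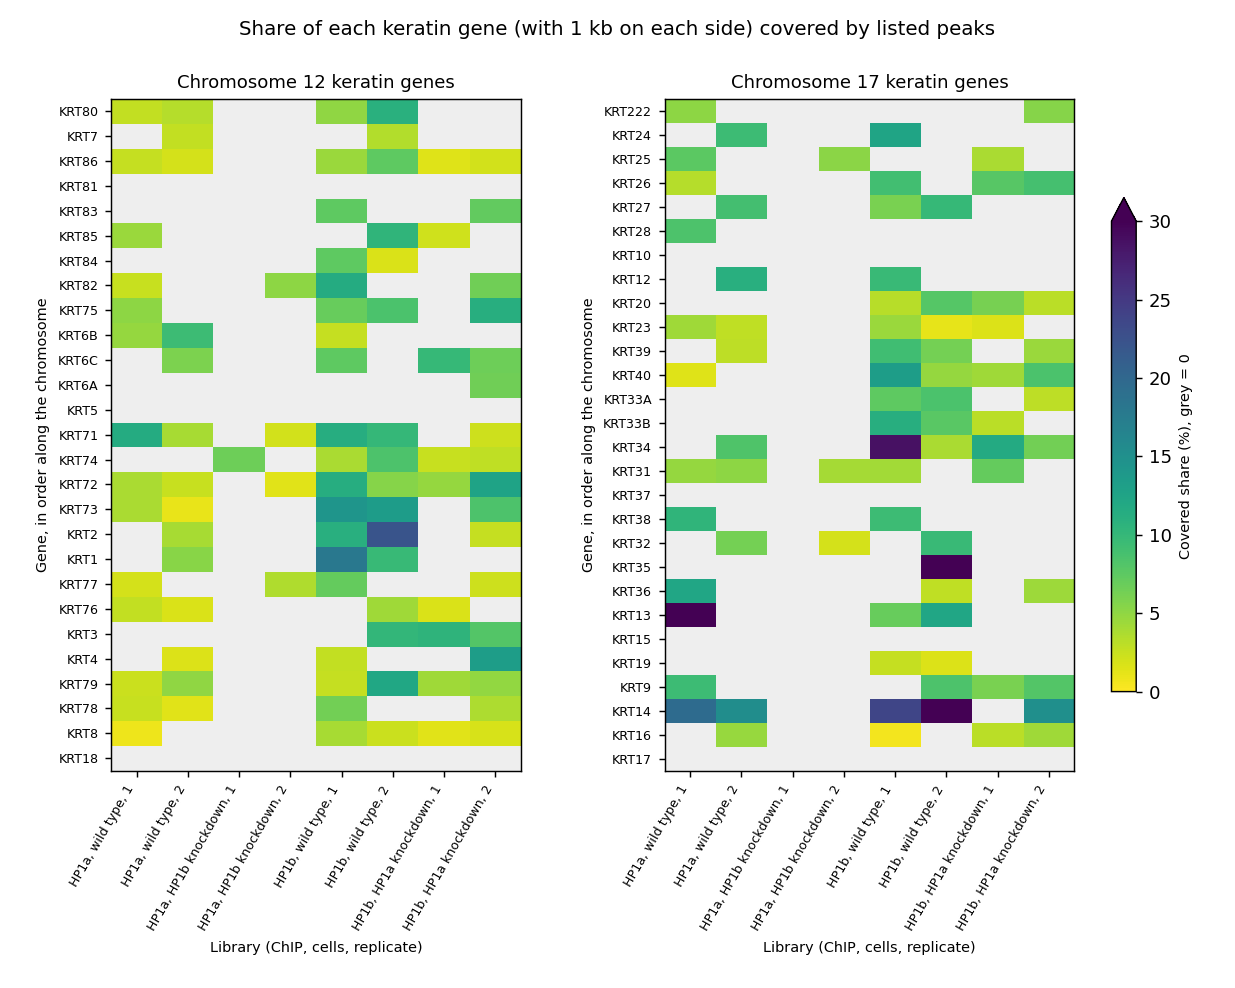
Covered share (%) of the 55 keratin genes with 1 kb on each side in the 8 libraries, with genes in chromosome order and grey for genes with no listed peak. Columns for HP1a in the HP1b knockdown are almost empty (1 and 7 genes with a peak), and the darkest entries are KRT13 in HP1a wild-type replicate 1 and KRT14, KRT34 and KRT35 in HP1b wild type.

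Of the basal keratins, KRT14 (chr17:41582279-41586895) carried peaks of both proteins. HP1a covered 19.6 and 15.3% of it in wild-type cells and 0 and 0% in the HP1b knockdown. HP1b covered 23.7 and 31.2% in wild-type cells and 0 and 15.1% in the HP1a knockdown. For each protein, both wild-type libraries were higher than both knockdown libraries. The HP1b peaks at KRT14 in wild type shared places between replicates, over 822 bases at chr17:41582228-41583049 and 346 bases at chr17:41585078-41585423. The first of these places was also met by HP1a in wild-type replicate 2 and by HP1b in replicate 2 of the HP1a knockdown. For HP1a in wild type the replicates shared 163 bases. These were weak peaks: the fold enrichment in the authors' lists was between 2.37 and 3.01 for all 11 peaks at KRT14.

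KRT5 (chr12:52514575-52520394), the type II partner of KRT14, and KRT15, a type I keratin of basal cells, were at 0 in all 8 libraries. The nearest place to KRT5 found in both wild-type HP1b libraries was chr12:52511946-52512159, which lies beyond the 1 kb flank.

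Of the simple epithelial keratins, KRT20 had the highest mean HP1b coverage and KRT18 had none. KRT8 (chr12:52897191-52949860) was covered by HP1a over 0.788 and 0% in wild-type cells and 0 and 0% in the HP1b knockdown. HP1b covered 3.94 and 2.38% of KRT8 in wild-type cells and 1.38 and 1.85% in the HP1a knockdown. HP1b values were thus higher in both wild-type libraries, but no HP1b peak lay at the same place in both replicates of a group. KRT18 (chr12:52948855-52952906) had no peak, and its annotated span overlaps the end of KRT8. KRT7, which pairs with KRT19 in ducts, had peaks in 1 library of HP1a in wild type (2.76%) and 1 of HP1b in wild type (3.43%). KRT19 had HP1b peaks in wild type (2.66 and 1.61%) and in no other group. KRT20 had HP1b peaks over 3.17 and 7.87% in wild-type cells and 6.17 and 3.10% in the HP1a knockdown, and no HP1a peak.

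Among keratins of differentiating epidermis, HP1b in wild type covered 18.0 and 9.78% of KRT1 and 11.1 and 22.2% of KRT2, a keratin of the upper epidermis. In the HP1a knockdown KRT1 was at 0 and 0% and KRT2 at 0 and 2.58%, so the groups did not overlap at either gene. KRT9, of palm and sole epidermis, was covered over 0 and 8.35% in wild type against 6.02 and 8.03% in the knockdown, and KRT77 over 7.08 and 0% against 0 and 2.26%, so both overlapped. KRT10, the partner of KRT1, had no peak. KRT13, of mucosal epithelia, held the highest covered share of any keratin in any library, 42.2% for HP1a in wild-type replicate 1, but was at 0 in replicate 2. HP1b covered 7.01 and 12.3% of KRT13 in wild-type cells and 0 and 0% in the HP1a knockdown. Other keratins of mucosa and cornea did not share this order: HP1b covered 0 and 10.1% of KRT3 in wild type against 10.5 and 8.05% in the knockdown, and 2.75 and 0% of KRT4 against 0 and 13.3%.

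The stress keratins KRT6A, KRT6B and KRT6C, induced in wounded skin, are near-identical copies, and KRT16 and KRT17 have pseudogene copies elsewhere on chromosome 17. How reads that fit several copies were placed is not given in the sources used here, so their values are uncertain. HP1a covered 4.70 and 9.43% of KRT6B in wild-type cells and 0 and 0% in the HP1b knockdown, and KRT17 had no peak. Of 13 pseudogenes of KRT16 and KRT17, peaks were listed at KRT16P1 and KRT17P3 alone.

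Hair keratins make up 17 members, and 7 of them had HP1b peaks in both wild-type libraries (41.2%, all genes 55.6%, length range 43.7%). For HP1a, 2 of them did (11.8%, all genes 39.8%, length range 22.98%). Against the length range, the HP1b share was close and the HP1a share was lower. HP1b covered 28.7 and 3.78% of KRT34 in wild-type cells and 11.7 and 6.44% in the HP1a knockdown, so these groups overlapped. KRT35 was covered over 30.5% in HP1b wild-type replicate 2 and had no peak elsewhere. Of the 8 keratins of the inner root sheath, 5 had HP1b peaks in both wild-type libraries (62.5%, near the 55.6% of all genes, length range 43.7%). HP1b covered 14.4 and 13.4% of KRT73 and 11.3 and 5.49% of KRT72 in wild type. The span annotated for KRT86 contains KRT81, and the KRT86 peaks lay outside KRT81 and its flanks.

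The first comparison asked whether HP1a over keratins differed when HP1b was knocked down. Peaks of HP1a went missing from most keratins that had them. Of 12 keratins with a peak in both wild-type libraries, 9 had none in either knockdown library (75%), where the share was 47% of all genes and 64.6% of genes within the length range of keratins. They were the basal keratin KRT14, the stress keratin KRT6B, the inner root sheath keratin KRT73, the mucosal keratin KRT76, the hair keratin KRT86, and KRT23, KRT78, KRT79 and KRT80. No keratin kept a peak in all 4 libraries (21.7% of all genes and 10.1% in the length range did) and none of 17 gained one (0.728%). KRT31, KRT71 and KRT72 made up the rest of the 12, each with a peak in knockdown replicate 2. When each list was limited to its strongest peaks, equal in number across libraries, 0 keratins had a peak in both wild-type libraries and 0 were lost.

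Relative coverage, the covered bases of a gene per Mb of all covered bases in its library, takes out the total length of the lists. It was compared with limma's moderated test on log2 values with a pseudocount. Of the 55 keratins, 16 had a peak in at least 2 of these 4 libraries and were tested among 8877 genes, of which 26.9% fell and 1.7% rose. Of these 16, 6 fell and 0 rose. All 6 were at 0 in both knockdown libraries and so entered the test through their wild-type peaks alone. Their count, and the log2 changes and adjusted p values given below, are therefore descriptions and no support for a difference. With no filter, 0 of 55 keratins passed, and 0% of all genes fell. The median log2 change was −0.67 for these keratins and −1.03 for all genes tested. KRT14 fell by 1.89 on the log2 scale (SE 0.247, limma adjusted p 0.0308, lower in 2 of 2 knockdown libraries than in both wild-type ones). KRT86 fell by 1.57 and KRT80 by 1.49 on the same scale. KRT80 is a type II keratin of many epithelia, covered over 2.81 and 3.30% in wild type. KRT86 was covered over 2.67 and 1.95%, KRT23 over 4.33 and 2.90%, KRT76 over 2.81 and 1.72% and KRT78 over 2.47 and 1.39%. KRT23 fell by 1.28, KRT76 by 0.67 and KRT78 by 0.67 on the log2 scale, with limma adjusted p 0.0308 for the first pair and 0.0340 for KRT78.

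Because of these zeros the sizes of these log2 changes depend on the pseudocount, and they are not read as folds. With a replicate block (adjusted p 0.0852) or a pseudocount 4 times as large, 0 of the 6 passed, and 0% of all genes tested fell. With peaks matched in number, or kept at −log10 p of at least 4 or −log10 q of at least 2, the 6 were not tested. In these settings 2, 1 and 0 keratins had enough peaks for the test. Without either wild-type library the 6 had peaks in 1 library and were again not tested. Without a knockdown library, 1 library stood for that group, so no count is given.

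Of the other keratins with the highest coverage by HP1a, KRT71, of the inner root sheath, was covered over 11.6 and 3.90% in wild-type cells and 0 and 2.09% in the knockdown. KRT31, a hair keratin, was covered over 4.69 and 5.15% in wild-type cells and 0 and 3.99% in the knockdown. The place at KRT31 was the same in both wild-type libraries, chr17:41392725-41393000 in its flank, and peaks of 5 libraries met it. KRT25 had 7.55 and 0% in wild-type cells and 0 and 5.26% in the knockdown, so its groups overlapped.

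The second comparison asked whether HP1b over keratins differed when HP1a was knocked down. Relative coverage by HP1b was lower at most of the keratins tested, with a median change near that of all genes tested. No keratin passed the test. The share of all genes that were lower was not counted, so this direction is not read as particular to keratins. Of 55 keratins, 37 were tested among 13100 genes, of which 0% fell and 0% rose. Of these 37, 28 were lower and 9 higher in the knockdown, and the median log2 change was −0.51 against −0.46 for all genes tested. At an unadjusted p under 0.05 limma gave 6 keratins, all lower: KRT1, KRT2, KRT13, KRT27, KRT71 and KRT80. That is 16.2% of the keratins tested, against 24.8% of all genes tested. KRT1, KRT13, KRT27 and KRT80 were at 0 in both knockdown libraries and entered the test through their wild-type peaks alone. Nothing is read from the count, and the log2 changes and p values of KRT80 and KRT1 given below are descriptions. The smallest limma adjusted p was 0.147. KRT80 was covered over 4.92 and 11% in wild-type cells and 0 and 0% in the knockdown, with a log2 change of −2.57 (SE 0.65, limma adjusted p 0.147). The value for KRT1 was −1.89 (SE 0.51, adjusted p 0.147) and that for KRT14 was −1.62 (SE 0.86, adjusted p 0.312). KRT8 had −0.60 (SE 0.63, adjusted p 0.624).

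By presence, 6 of 23 keratins with HP1b peaks in both wild-type libraries had none in the knockdown (26.1%, against 14.2% of all genes and 24.6% of genes in the same length range). These were KRT80, KRT84, KRT1, KRT27, KRT13 and KRT19. A peak in all 4 libraries was kept at 8 (34.8%, against 63.6% of all genes and 44.0% in the length range), namely KRT8, KRT20, KRT34, KRT40, KRT72, KRT74, KRT79 and KRT86. None of 11 keratins gained a peak (4.21% of all genes). With the same number of peaks from each library 3 of 12 were lost and 3 kept, against 12.9 and 70.0% of all genes. KRT73 shows how the knockdown libraries differed: it was covered over 0% in replicate 1 and 8.33% in replicate 2. Without replicate 2 its log2 change was −3.24. That value rests on its wild-type peaks, because KRT73 had no peak in the knockdown library left, so no p value is given. KRT72 was covered over 4.71 and 12.6% and KRT40, a hair keratin with 13.3 and 4.74% in wild type, over 4.31 and 8.49%, so both overlapped between groups.

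The third comparison set HP1b against HP1a in wild type, with the same libraries that served as controls above. Keratins with peaks of HP1a mostly had peaks of HP1b as well, and some had those of HP1b alone. Of 12 keratins with HP1a in both libraries, 8 had HP1b in both (66.7%, against 92% of all genes and 82.6% in the length range) and 0 had no HP1b peak (1.47%). Of 17 keratins with no HP1a peak, 6 had HP1b in both libraries (35.3%, against 17.9% of all genes and 20.2% in the length range). They were the hair keratins KRT33A, KRT33B and KRT84, the inner root sheath keratin KRT74 and the simple epithelial keratins KRT19 and KRT20. With the same number of peaks from each library, 2 of 11 keratins with HP1a had both proteins (all genes 75.7%). Of these 11, 2 had HP1a alone (7.73%), and 2 other keratins had HP1b alone.

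KRT33A was covered by HP1b over 7.47 and 8.53% and KRT33B over 11.2 and 7.65%, against 0% in both HP1a libraries. In relative coverage 41 keratins were tested among 13089 genes, of which 0% fell and 0% rose, and 0 keratins passed. At an unadjusted p under 0.05 limma gave 4 keratins, all higher for HP1b: KRT20, KRT33A, KRT33B and KRT74. These 4 (9.76% of the 41, against 12.5% of all genes tested at that p) were at 0 in both HP1a libraries and entered the test through HP1b alone, so nothing is read from their count. The log2 difference, HP1b minus HP1a, was 1.42 for KRT33B (SE 0.44) and 1.11 for KRT33A (SE 0.36), with limma adjusted p 0.369 for both. For KRT14 it was −0.52 (SE 0.62, adjusted p 0.818), with its covered share higher for HP1b in both libraries; without the scaling to total covered bases it was 0.63. The median log2 difference was 0.013 for the keratins tested and 0.098 for all genes tested.

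A peak in both replicates did not always mean the same place. For HP1a in wild type, peaks of both replicates overlapped by at least 1 base at 4 of 12 keratins (33.3%, all genes 48.3%), KRT14, KRT31, KRT79 and KRT80. For HP1b in wild type they did at 14 of 23 (60.9%, all genes 64.8%), and in the HP1a knockdown at 5 of 13 (38.5%, all genes 71.8%), KRT6C, KRT9, KRT16, KRT20 and KRT26. Counted over peaks, replicates met less in the type II cluster than over the genome: 4.65 and 4.76% of its HP1a peaks in wild type, against 18.4 and 21.4% of all. Fewer keratin peaks were strong ones in the authors' lists: 12.1 and 28.6% of HP1a peaks over keratins in wild type had a −log10 p of at least 4, against 33.0 and 30.1% of all peaks. For HP1b in wild type these shares were 6.25 and 12.3%, against 12.0 and 17.1%. By median fold enrichment keratin peaks were close to all peaks, with 3.24 and 3.21 against 3.29 and 3.26 for HP1a in wild type and 2.82 and 3.08 against 2.93 and 3.03 for HP1b.

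**Figure D2:**
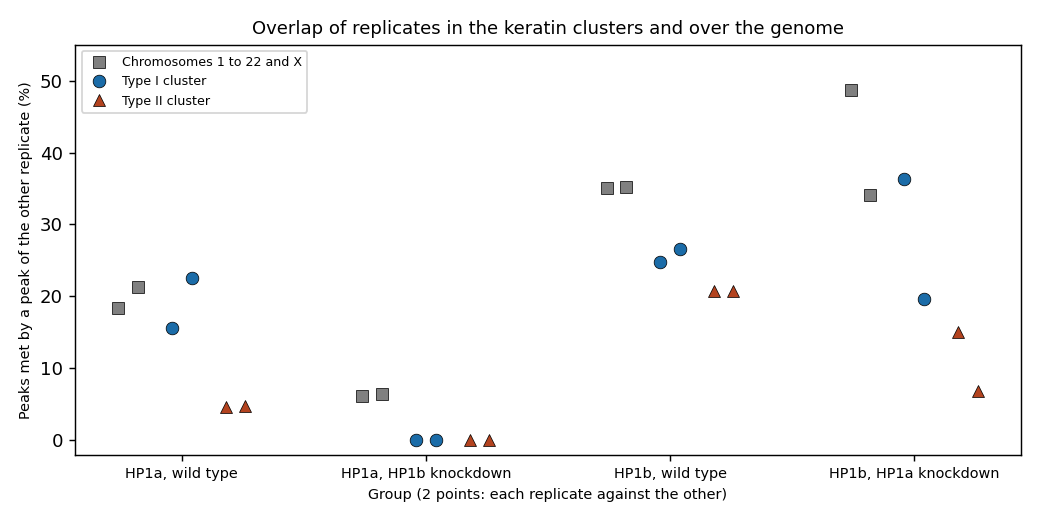
Share (%) of the peaks of each library that overlapped a peak listed for its fellow replicate, over chromosomes 1 to 22 and X and in the type I and type II keratin clusters. Each group has 2 points per region; those of the type II cluster lie below those of the genome in all 4 groups, for example 20.7 and 20.7% against 35.1 and 35.2% for HP1b in wild type.

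Both clusters were also measured whole, with the ground between genes. The type I cluster (chr17:40654665-41624575) holds 28 keratins over 969.9 kb and, in its middle, a block of 322.3 kb with genes for keratin-associated proteins, the matrix proteins of hair. The type II cluster (chr12:52168996-52952906) holds 27 keratins, KRT18 among them, over 783.9 kb. HP1b covered 6.45 and 6.18% of the type I cluster in wild-type cells and 2.05 and 3.32% in the HP1a knockdown. It covered 7.13 and 6.44% of the type II cluster in wild-type cells and 1.71 and 4.93% in the knockdown. The wild-type values lay above those of the knockdown in both clusters. The genome as a whole was covered over 5.23 and 5.19% in wild-type cells and 3.91 and 5.45% in the knockdown, so the type I cluster went from 1.23 and 1.19 times the genome's share to 0.525 and 0.609 times. The type II cluster went from 1.36 and 1.24 times to 0.438 and 0.904 times.

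**Figure D3:**
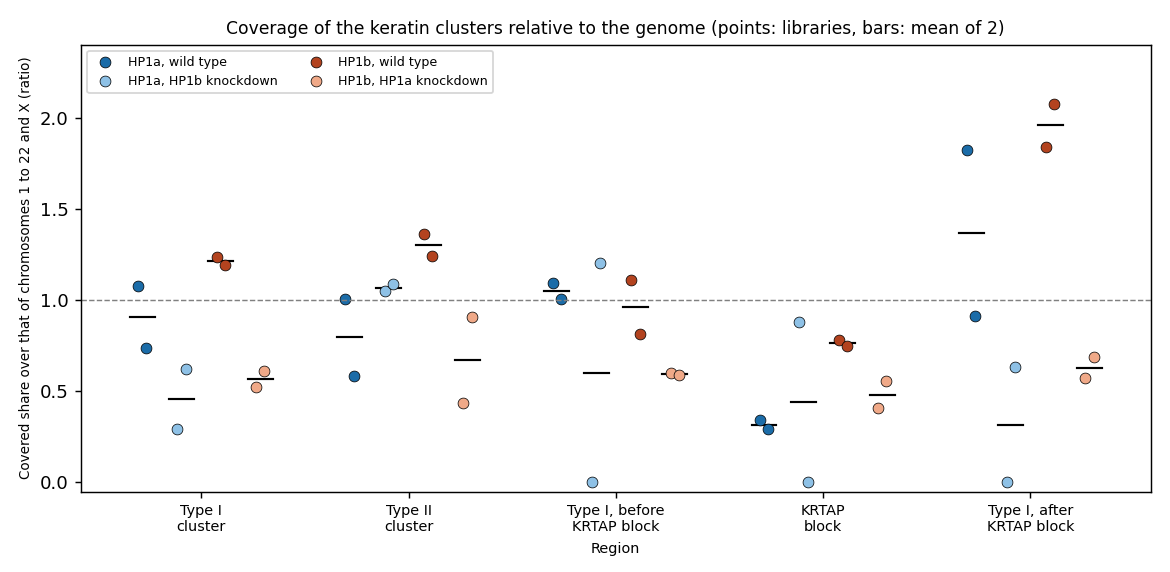
Covered share of each keratin cluster and of 3 segments of the type I cluster, divided by the covered share of chromosomes 1 to 22 and X in the same library; points are libraries, bars the mean of 2 and the dashed line a ratio of 1. Both wild-type HP1b points lie above 1 in both clusters, and both HP1a knockdown points lie below 1.

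In relative coverage the change of HP1b was −1.10 on the log2 scale for the type I cluster and −1.05 for the type II cluster. The exact permutation test gave p 0.333 for each (two-sided), the smallest that 2 libraries against 2 allow. With peaks of −log10 q of at least 2 the value of the type II cluster turned to 0.68. Among 2879 windows of 1 Mb along the genome the median change was −0.15, and 5.35 and 6.29% of windows had a change as low as the type I and type II clusters. Within the type I cluster, the segment after the block, from KRT33A to KRT17, had the highest HP1b coverage in wild type. HP1b covered 9.62 and 10.8% of it in wild-type cells and 2.23 and 3.74% in the knockdown. In the block itself the values were 4.07 and 3.87% in wild-type cells and 1.59 and 3.02% in the knockdown. The 500 kb on each side of the type I cluster were covered over 2.78 and 3.30% in wild-type cells and 0.559 and 1.38% in the knockdown, so coverage was lower outside the cluster too. Beside the type II cluster the groups overlapped, with 3.77 and 3.86% in wild-type cells and 2.45 and 4.16% in the knockdown.

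HP1a covered 2.48 and 1.48% of the type I cluster and 2.32 and 1.17% of the type II cluster in wild type. In the HP1b knockdown it covered 0.0958 and 0.199% of the first and 0.342 and 0.348% of the second. Knockdown values were lower in both clusters without overlap, and so was the coverage of the genome, at 2.31 and 2.0% in wild-type cells and 0.327 and 0.320% in the knockdown. In relative coverage the log2 change was −1.06 for the type I cluster and 0.48 for the type II cluster (exact permutation p 0.333 for each), where the second turned to −2.26 without scaling and to −0.20 with peaks of −log10 p of at least 4. The median of windows was −0.46, with 25.6% of them as low as the first and 20.6% as high as the second. In the knockdown these values rest on 3 and 5 peaks in the type I cluster and 4 and 6 in the type II cluster.

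In wild type, HP1b minus HP1a in relative coverage was 0.44 for the type I cluster and 0.76 for the type II cluster (exact permutation p 0.333 for each). Of 2869 windows, 16 and 4.08% were as high. With peaks of −log10 p of at least 4 the differences turned to −0.032 and −0.12.

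**Figure D4:**
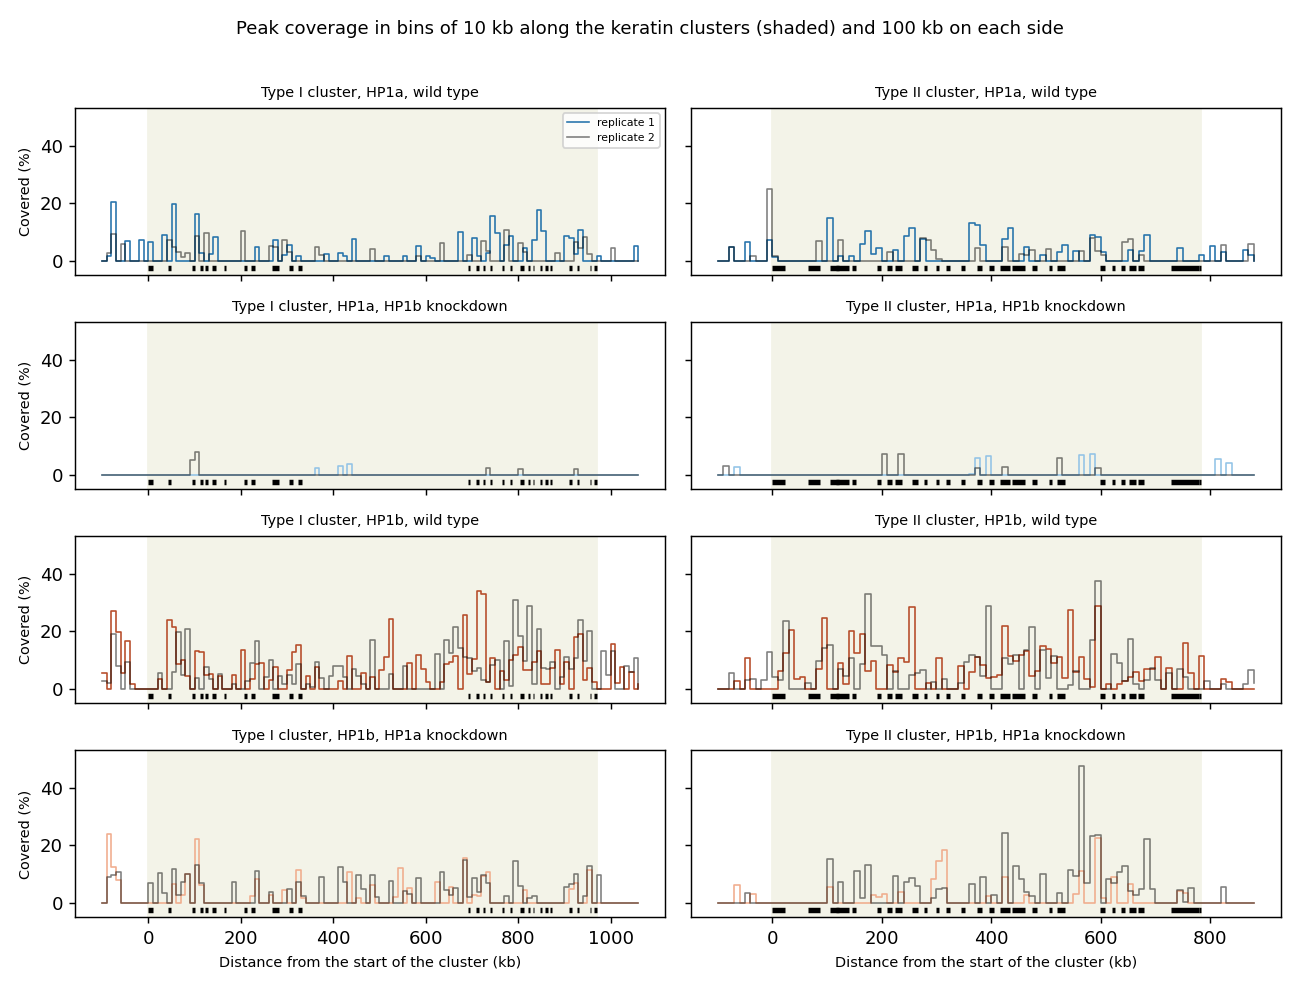
Covered share (%) in bins of 10 kb along both keratin clusters (shaded) and 100 kb on each side, by group, with replicate 1 in colour, replicate 2 in grey and keratin genes as black bars. Coverage by HP1b in wild type is spread along both clusters in bins of up to 37.5%, the peaks of HP1a in the HP1b knockdown are few, and the highest bin (47.6%) is in replicate 2 of HP1b in the HP1a knockdown.

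The places found in most libraries lay between keratin genes. They were singled out after their values were seen. Between KRT77 and KRT76 the wild-type HP1b replicates shared 2462 bases at chr12:52759797-52762258, with fold enrichments of 3.20 and 3.05 in the authors' lists. Peaks of 7 libraries met this place, all but replicate 1 of HP1a in the HP1b knockdown. Of 87233 places shared by the wild-type HP1b replicates over the genome, 1.88% were met in 7 or 8 libraries and 1.51% had at least 2 kb in common. Between KRT25 and KRT26 the same 7 libraries had peaks within a short stretch, such as chr17:40761597-40762804 for HP1b in wild-type replicate 1 and chr17:40761208-40762008 for HP1a in the HP1b knockdown, though the wild-type HP1b peaks shared 13 bases there.

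Genes that work with keratins were counted in the same way. Of 94 genes for keratin-associated proteins, 6 had HP1b peaks in both wild-type libraries (6.38%) and 2 had HP1a peaks (2.13%). Of all genes, 55.6 and 39.8% did. Over bases in wild type, HP1b covered 3.65 and 4.28% of the windows of these 94 genes (all genes 4.63 and 4.84%). HP1a covered 1.33 and 0.408% of them (all genes 2.25 and 1.83%). Of 17 genes of desmosomes and hemidesmosomes, the junctions that anchor keratin filaments, 8 had HP1b peaks (47.1%) and 6 had HP1a peaks (35.3%) in both. Of 40 genes of the cornified envelope, the shell of dead skin cells, 18 and 16 did (45 and 40%). Of 16 genes for other intermediate filaments 7 and 5 did (43.75 and 31.25%). In the HP1b knockdown, HP1a peaks were missing from both libraries at 2 of 2, 4 of 6, 9 of 16 and 4 of 5 of those with wild-type HP1a peaks, in the same order of lists, where 47% of all genes and 64.6% in the keratin length range lost theirs. In the HP1a knockdown, HP1b peaks were missing from both at 2 of 6, 1 of 8, 6 of 18 and 2 of 7, against 14.2% of all genes and 24.6% in the length range.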

How the data were processed

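HP1a and HP1b were measured by ChIP-seq in 4 groups of 2 libraries of MCF10A cells. Reads were processed with tools that include MACS3, Bowtie2, Trimmomatic and SAMtools on hg38, per the submitters' processing notes. Versions, peak-call settings and any input library were not given in the sources used here. Broad peak lists as deposited give the authors' start and end positions. Their score was 10 times the −log10 q. The authors' fold enrichment is a ratio per peak, and the deposited −log10 p and −log10 q are the peak caller's, called per library. Depth is unknown, so no counting interval was set.

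Peaks outside chromosomes 1 to 22 and X were left out (99.1 to 99.7% of each list stayed), and the rest were merged within a library, and counted in bases over RefSeq GRCh38.p14 genes with 1 kb on each side. That table gives gene bounds without exons. Relative coverage (bases per Mb of all covered bases) plus a pseudocount, the 10th percentile of values above 0, was taken to log2 and fitted with limma 3.58.1 (R 4.3.3; moderated test, variance trend) for genes that had peaks in 2 or more of the 4 libraries compared. P values were adjusted by Benjamini-Hochberg over all genes, with a threshold of 0.05. Lost genes had a peak in both libraries of the first group and in neither of the second, gained genes the reverse, and kept genes a peak in all 4. Clusters were keratins less than 500 kb apart and were compared by exact permutation. The fit was tested on simulated data.

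The members and lists were chosen with earlier results of these data known. Text names KRT5, KRT14, KRT8 and KRT18, the 6 keratins of highest mean coverage per comparison, those past the threshold, and those lost or gained (up to 8 lost, by wild-type coverage, in the rule; all 9 are named). Others were named after their values were seen. Alternatives changed the peak strength, number of peaks, pseudocount, filter, scaling, window, libraries in the fit and replicate block, and left out each library in turn. Requiring overlapping peaks was added after the data were seen.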

Additional observations from a re-analysis of the deposited data

How the results depend on the processing

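For HP1a in the HP1b knockdown, the 6 keratins that fell became 0 with the same number of top peaks per library (2 keratins tested). They became 0 with peaks of −log10 p of at least 4 (1 tested), with the pseudocount multiplied by 4, with no filter and with the replicate block. In each of these settings 0% of all genes fell as well, against 26.9% in the main fit. With peaks of −log10 q of at least 2, 68.9% of all genes fell and 0 keratins were tested. The 9 lost became 0 with top peaks and at either strength (−log10 p or −log10 q), where 0 keratins had a peak in both wild-type libraries. They became 3 of 4 with overlapping peaks required of both libraries, a setting in which the share of all genes was not counted. For HP1b in the HP1a knockdown, the 6 lost and 8 kept became 3 and 3 of 12 with top peaks. They became 1 and 0 of 1 at either strength, and 3 and 1 of 14 with overlapping peaks. Of all genes, 12.9 and 70.0% were lost and kept with top peaks. For HP1b against HP1a in wild type, keratins with HP1a alone went from 0 to 2 with top peaks. Those with both went from 8 to 2 of 11 with top peaks (all genes 75.7%), 0 of 0 at either strength and 3 of 4 with overlapping peaks. Those with HP1b alone went from 6 to 2, 1 and 3 in these settings. The cause was not tested, beyond there being fewer peaks in these settings.

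The log2 change of the type II cluster turned from 0.48 to −0.20 for HP1a in the HP1b knockdown at −log10 p of at least 4 and to −2.26 without scaling. For HP1b in the HP1a knockdown it turned from −1.05 to 0.68 at −log10 q of at least 2. The wild-type differences turned to −0.032 (type I) and −0.12 (type II) at −log10 p of at least 4, and that of KRT14 to 0.63 without scaling. Clusters listed at 0 in a library gave no value, in the other cases of −log10 q of at least 2 and for HP1a in the type II cluster with top peaks.

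Leaving out each library in turn, HP1a in the HP1b knockdown gave 9 to 20 lost, 0 to 3 kept and 0 to 1 gained. The 20 lost were of 24 and 26 keratins without wild-type replicate 1 and 2, against 53.2 and 55.9% of all genes. Without knockdown replicate 1 and 2, 9 and 12 of 12 were lost (64.1 and 61.2%) and 3 and 0 kept (35.9 and 38.8%). HP1b in the HP1a knockdown gave 8 to 13 lost, 10 to 15 kept and 1 to 3 gained. Without wild-type replicate 1 and 2, 9 of 31 and 10 of 36 were lost (all genes 21.1 and 19.7%). In these settings 10 and 11 were kept (55.3 and 56.9%). Without knockdown replicate 1 and 2, 8 and 13 of 23 were lost (17.1 and 33.5%). There 15 and 10 were kept (82.9 and 66.5%). The wild-type comparison gave 0 to 3 keratins with HP1a alone, 9 to 13 with both and 7 to 11 with HP1b alone. Without HP1a replicate 1 and 2, 13 of 24 and 12 of 26 had both (all genes 84.9 and 81.9%). In these settings 10 and 11 had HP1b alone. Without HP1b replicate 1 and 2, 9 and 11 of 12 had both (96.0 and 94.5%). In fits with a library left out, the lone library was assumed to vary like the other group. The clusters kept their direction: −1.61 to −0.52 and 0.084 to 0.87 for HP1a, −1.21 to −0.99 and −1.57 to −0.52 for HP1b, and 0.17 to 0.71 and 0.37 to 1.15 in wild type (type I, then type II).

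Libraries with the same replicate number did not deviate together (r of 0.026, 0.037 and −0.0092 over genes, 2 pairs each), so the numbers were not taken as pairs. The replicate block gave 0 keratins that fell in the other comparisons as well. Without scaling, the median log2 change of all genes moved from −1.03 to −2.25, from −0.46 to −0.54 and from 0.098 to 0.97 in the comparisons in order, and 9, 0 and 0 keratins fell; the 9 are 56.2% of the 16 tested, where 54.3% of all genes fell.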
